A study of Mus musculus with 4 samples.

Results

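Metallothioneins and the proteins that move zinc across membranes were followed in 2 mouse neural lines, through the 8 genes Mt1, Mt2, Mt3, Mtf1, Slc30a1, Slc39a6, Slc39a10 and Slc39a14. The genes were chosen from measured differences between these same lines, so what follows describes their levels and differences and tests neither. Every probe set that the platform annotation maps to 1 of these genes alone was taken, which gave 21 of the 45101 probe sets on the array, for 8 of 18193 named genes. NSCL61-sox11 cells are C57BL/6, p53-/- and sox11-expressing, and were measured on 2 arrays. NSCL61 cells are C57BL/6 and p53-/- and were measured on 2 arrays. Both lines are labelled as brain neural stem cells resembling glioma-initiating cells, from E14.5 embryos, and both grew as floating spheres in serum-free medium with insulin, transferrin, sodium selenite, forskolin, PDGF and bFGF. The submitters' design text says that NSCL61-sox11 no longer formed tumours in vivo, and gives the search for genes that set the lines apart as the purpose. Each condition is 1 line, so Sox11 expression and any other difference between the lines cannot be told apart. Whether a line's 2 arrays are separate cultures is not stated, so p-values measure array-to-array spread that may be technical.

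Metallothioneins are small cysteine-rich proteins that hold zinc and copper in the cytosol. Mt1 and Mt2 are made in most tissues and are induced by metals, glucocorticoids and oxidative stress, while Mt3 is found mainly in the brain. The zinc finger factor Mtf1 senses free zinc and drives metallothionein genes through short promoter motifs called metal response elements. Slc30 proteins, also called ZnT, carry zinc out of the cytosol, and Slc39 proteins, also called ZIP, carry it in. Slc30a1 is the exporter of the plasma membrane and a known Mtf1 target.

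Promoter windows from RefSeq on GRCm38.p6, of 250 bases before and 50 after the annotated start, were matched for 6 of the 8 genes. Slc39a6 and Slc39a14 are named only. The core of the metal response element was searched as TGCACNC or TGCGCNC on both strands, where N is any base and no position can match both. Below, the 3 metallothionein windows and that of Slc30a1 are shown because these genes carry the motif and are the textbook Mtf1 targets, or their neighbour Mt3. All are read on the + strand, and capitals mark the core matches.
Mt3, chr8:94152357-94152656: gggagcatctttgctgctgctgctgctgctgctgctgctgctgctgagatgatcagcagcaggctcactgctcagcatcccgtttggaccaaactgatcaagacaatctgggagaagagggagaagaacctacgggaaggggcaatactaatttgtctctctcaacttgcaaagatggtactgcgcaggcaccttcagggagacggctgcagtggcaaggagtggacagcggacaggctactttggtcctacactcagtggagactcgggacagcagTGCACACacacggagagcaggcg
Mt2, chr8:94172368-94172667: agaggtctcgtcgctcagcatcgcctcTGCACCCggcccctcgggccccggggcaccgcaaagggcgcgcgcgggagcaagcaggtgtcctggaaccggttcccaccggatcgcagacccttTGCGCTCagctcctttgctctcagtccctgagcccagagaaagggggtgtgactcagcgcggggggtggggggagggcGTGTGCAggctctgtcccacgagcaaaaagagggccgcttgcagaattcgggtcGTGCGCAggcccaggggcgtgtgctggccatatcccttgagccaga
Mt1, chr8:94178839-94179138: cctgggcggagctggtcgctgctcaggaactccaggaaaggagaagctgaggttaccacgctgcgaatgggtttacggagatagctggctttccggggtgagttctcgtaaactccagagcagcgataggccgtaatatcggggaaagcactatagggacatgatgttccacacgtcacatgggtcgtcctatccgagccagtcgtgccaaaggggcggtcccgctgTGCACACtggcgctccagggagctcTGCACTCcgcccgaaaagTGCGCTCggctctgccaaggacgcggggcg
Slc30a1, chr1:191906531-191906830: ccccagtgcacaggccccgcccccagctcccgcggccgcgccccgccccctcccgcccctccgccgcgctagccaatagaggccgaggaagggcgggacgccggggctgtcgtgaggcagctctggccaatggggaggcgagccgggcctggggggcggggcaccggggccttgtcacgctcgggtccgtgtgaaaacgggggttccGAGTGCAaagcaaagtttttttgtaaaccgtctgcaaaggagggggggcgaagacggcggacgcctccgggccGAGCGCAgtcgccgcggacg

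The Mt3 window held 1 match, at positions 28 to 34 counted from 1 at the annotated start. In Mt2 there were 4 matches, and the one nearest before the start lay at -50 to -44. Mt1 held 3, of which 1 lay before the start, at -23 to -17. Slc30a1 held 2, at -43 to -37 and 31 to 37. Among 32817 mouse windows of the same length, 25.7% held at least 1 match, 7.12% at least 2, 1.97% at least 3 and 0.518% at least 4. The single match of Mt3 is therefore common among promoters, and the 4 of Mt2 are a count that few windows reach. The Mtf1 window and both Slc39a10 windows had 0 matches. A core of Sox binding motifs, searched as ACAAAG or ACAATG on both strands, was found in none of the windows of Mt1, Mt2, Mt3, Mtf1 and Slc30a1. It was found once in 1 of the 2 Slc39a10 windows, against 28.6% of all windows with at least 1. A match is only a run of letters, and its absence says nothing beyond these 300 bases. Positions are counted from the annotated start, and whether transcription in these cells begins there was not tested.

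Sox11 itself was higher in NSCL61-sox11 on all 6 of its probe sets, by 0.38 to 2.90 log2 units. Its brightest probe set read 7.74 and 7.97 in NSCL61-sox11, against 5.09 and 4.82 in NSCL61. Arrays of a line correlated at 0.994 in NSCL61-sox11 and 0.995 in NSCL61, and arrays of different lines at 0.968 to 0.972, over probe sets, which are not independent. Of 5 neural stem and progenitor markers 4 lay above the level filter defined below. Among them Sox2 (by 1.70), Pax6 (by 0.45) and Vim (by 0.21) fell and Nes did not pass the test, while Fabp7 lay below the filter. These differences are of the brightest probe set, and only 1 of 3 tested probe sets of Vim and 2 of 4 of Pax6 were called lower. A level above the filter does not show that the labelled cell type was kept equally in both lines, which was not tested. The call of Sox2 held under every alternative, while those of Vim (limma adjusted p 0.139 and 0.192) and Pax6 (0.125 and 0.213) were lost without NSCL61 array 1 or 2, and that of Pax6 also without NSCL61-sox11 array 1 (0.106). Over alternatives the adjusted p ran from 0.000102 to 0.192 for Vim and from 0.000324 to 0.213 for Pax6. Scaling to the poly-A controls removed the calls of both, and a fit with no intensity trend removed that of Vim. The log2 of the summed levels of the 4 tested markers was 14.23 and 14.31 in NSCL61-sox11, against 14.51 and 14.57 in NSCL61. Vim alone read 14.14 and 14.21 in NSCL61-sox11, against 14.36 and 14.40 in NSCL61, so the sum mostly reads Vim and hides the fall of Sox2.

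Values below are the deposited log2 levels, 1 per array, given as array 1 and then array 2 of each line. A difference is the mean of NSCL61-sox11 minus the mean of NSCL61, with limma's moderated standard error (SE). The fit covered the 27022 probe sets with the highest mean, and a probe set was called where the Benjamini-Hochberg adjusted p was under 0.05. Of the 21 probe sets 17 were tested, and 4 lay below the filter. Levels of different probe sets are not comparable on arrays, so the genes are not ranked by level. In bulk RNA such as this, fewer cells of a type and less RNA per cell cannot be told apart.

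Mt3 had the largest difference of the 8 genes, while Mt1 and Mt2 lay much closer between the lines. The only Mt3 probe set, 1420575_at, read 7.35 and 8.08 in NSCL61-sox11, against 8.96 and 9.52 in NSCL61. Both NSCL61-sox11 arrays were below both NSCL61 arrays, with 0.88 log2 units between the nearest pair. The means were 7.72 ± 0.52 in NSCL61-sox11 and 9.24 ± 0.39 in NSCL61 (SD, n = 2 each), a difference of -1.52 (SE 0.27), which is 2.87-fold lower. Mt3, first known as growth inhibitory factor of neurons, was called in 12 of 13 alternative settings. Without NSCL61 array 2 it was not called, and its difference was -1.24. Leaving out each array in turn gave -1.89 to -1.16, so no single array set its direction.

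Mt2, an inducible metallothionein, has 1 probe set, 1428942_at. It read 11.67 and 11.82 in NSCL61-sox11, against 11.94 and 12.28 in NSCL61. The groups did not overlap, but the nearest arrays were only 0.12 apart, and the difference of -0.36 (SE 0.12) was not called. It was called with hybridisation control scaling and without NSCL61-sox11 array 2 (-0.44). Mt1, its inducible partner, has 2 probe sets that read differently. On the brighter, 1422557_s_at, levels were 12.22 and 12.34 in NSCL61-sox11, against 12.21 and 12.49 in NSCL61. The groups overlapped there, the difference was -0.07 (SE 0.10), and its sign turned to 0.07 without NSCL61 array 2. On the dimmer, 1451612_at, levels were 6.60 and 7.00 in NSCL61-sox11, against 7.13 and 7.30 in NSCL61. The groups did not overlap on it, with a difference of -0.41 (SE 0.15) that was not called. The suffix _s_at marks a probe set whose probes can match more than 1 transcript, and whether the brighter one also reads other metallothionein RNA was not tested. Mt4, the remaining gene of the cluster and no member of the set, lay below the filter, at 3.81 and 4.08 in NSCL61-sox11, against 4.14 and 4.22 in NSCL61.

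**Figure D1:**
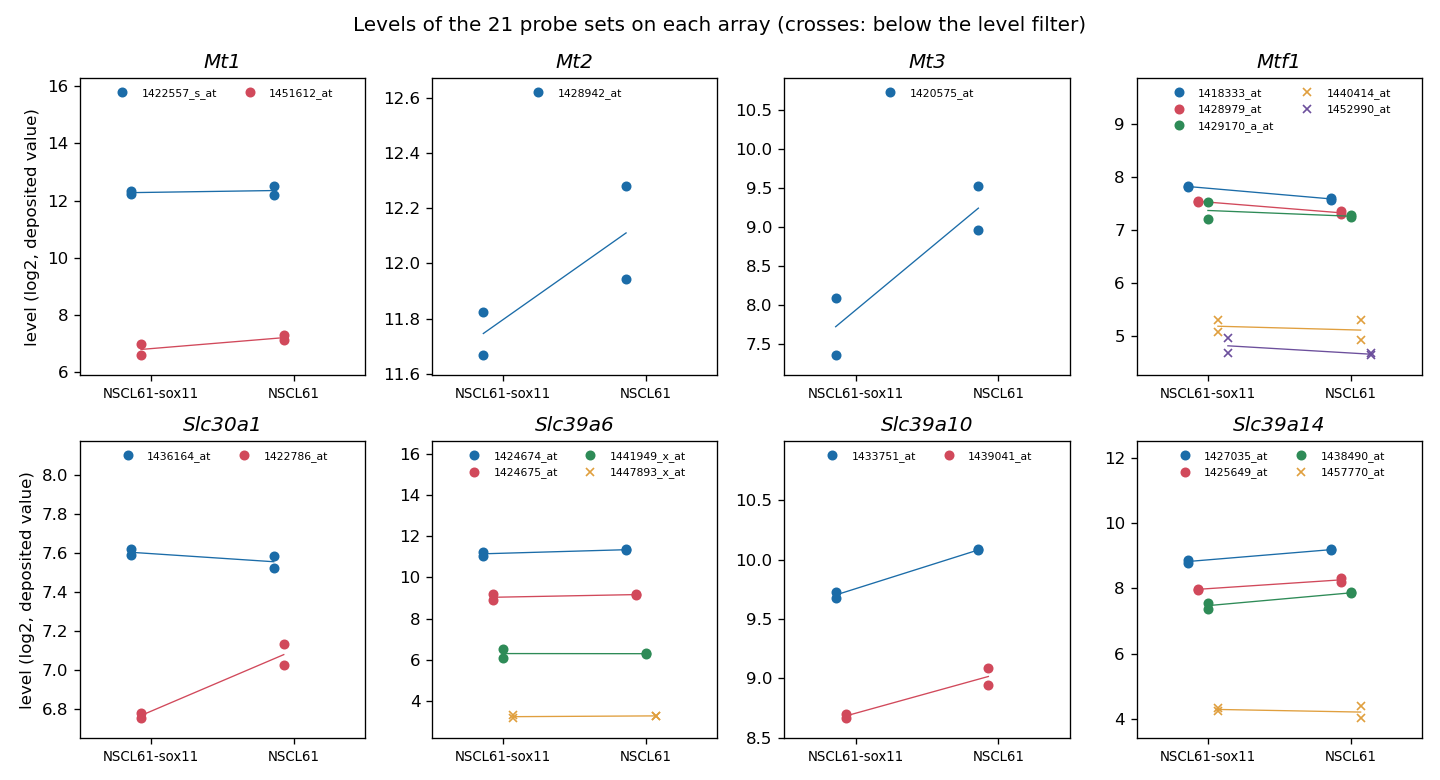
Deposited log2 level (vertical axis, with its own range in each panel) of each of the 21 probe sets on the 2 NSCL61-sox11 arrays and the 2 NSCL61 arrays; each point is 1 array, lines join the means, and crosses mark the 4 probe sets below the filter. The Mt3 arrays separate by 0.88 log2 units, and the brighter Mt1 probe set overlaps.

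Mtf1, the zinc sensor, was slightly higher in NSCL61-sox11 on the deposited scale, on each of its 3 tested probe sets. Probe set 1418333_at read 7.81 and 7.81 in NSCL61-sox11, against 7.59 and 7.57 in NSCL61, a difference of 0.23 (SE 0.09). For 1428979_at the levels were 7.54 and 7.53 in NSCL61-sox11, against 7.29 and 7.35 in NSCL61, a difference of 0.22 (SE 0.09). The groups did not overlap on either, and neither was called. On 1429170_a_at they did overlap, at 7.52 and 7.20 in NSCL61-sox11, against 7.27 and 7.23 in NSCL61, with a difference of 0.11 (SE 0.13) that was -0.05 without NSCL61-sox11 array 1. With arrays scaled to the poly-A controls, the 3 differences turned to -0.17, -0.19 and -0.30, and with the hybridisation controls 1418333_at differed by 0.02 and 1429170_a_at by -0.11. These scalings lower the differences of all genes by 1 amount, so the sign of a small difference depends on the scale, for Mtf1 as for any gene. Its other probe sets, 1440414_at and 1452990_at, lay below the filter, at 4.67 to 5.29 in NSCL61-sox11 and 4.63 to 5.29 in NSCL61.

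Slc30a1, the plasma membrane zinc exporter, gave opposite signs on its 2 probe sets. On 1436164_at it read 7.59 and 7.62 in NSCL61-sox11, against 7.52 and 7.59 in NSCL61. The difference there was 0.05 (SE 0.09), and the nearest arrays of the lines were 0.0025 apart. On 1422786_at the levels were 6.78 and 6.75 in NSCL61-sox11, against 7.13 and 7.02 in NSCL61. That difference was -0.31 (SE 0.10) and the groups were separate, yet neither probe set was called. Scaled to the hybridisation controls, the differences were -0.17 and -0.53, and scaled to the poly-A controls they were -0.36 and -0.72, so the sign of the first flips under these shifts of all genes.

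The zinc importers Slc39a10 and Slc39a14 were lower in NSCL61-sox11 on every tested probe set, by 1.22- to 1.31-fold. Slc39a10, or ZIP10, read 9.73 and 9.67 on 1433751_at in NSCL61-sox11, against 10.08 and 10.08 in NSCL61. The difference of -0.38 (SE 0.08) was called, and no array of one line reached the other. On 1439041_at it read 8.70 and 8.66 in NSCL61-sox11, against 8.94 and 9.09 in NSCL61, a difference of -0.33 (SE 0.09) that was not called. The 2 probe sets thus differ by little in size. The call on 1433751_at was lost without NSCL61 array 1, at -0.38, and without NSCL61 array 2, at -0.38, though the difference barely moved, and it was also lost with poly-A scaling.

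Slc39a14, or ZIP14, which also carries manganese and iron, has 3 tested probe sets, and 2 were called. Levels on 1427035_at were 8.78 and 8.87 in NSCL61-sox11, against 9.18 and 9.19 in NSCL61, a difference of -0.36 (SE 0.09). On 1438490_at they were 7.56 and 7.38 in NSCL61-sox11, against 7.88 and 7.85 in NSCL61, a difference of -0.39 (SE 0.10). The groups were separate on both. On 1425649_at they were 7.96 and 7.98 in NSCL61-sox11, against 8.20 and 8.32 in NSCL61, and the difference of -0.29 (SE 0.09) was not called. Leaving out arrays kept the 3 differences between -0.48 and -0.23. The call on 1427035_at was lost without NSCL61-sox11 array 1 (-0.32), NSCL61 array 1 (-0.37) or NSCL61 array 2 (-0.36), and that on 1438490_at without NSCL61-sox11 array 2 (-0.30), NSCL61 array 1 (-0.38) or NSCL61 array 2 (-0.41). Poly-A scaling removed both calls, and that on 1438490_at was also lost with no intensity trend and with no level filter. Its last probe set, 1457770_at, lay below the filter, at 4.23 and 4.34 in NSCL61-sox11, against 4.39 and 4.02 in NSCL61.

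Slc39a6, or ZIP6, the close relative with which ZIP10 forms a complex, differed less. Its brightest probe set, 1424674_at, read 11.05 and 11.26 in NSCL61-sox11, against 11.36 and 11.34 in NSCL61. The groups did not overlap, with a difference of -0.20 (SE 0.09) that was not called. On 1424675_at it read 8.89 and 9.19 in NSCL61-sox11, against 9.17 and 9.16 in NSCL61, and on this one the groups overlapped (-0.13, SE 0.12). On 1441949_x_at the levels of 6.07 and 6.54 in NSCL61-sox11 lay on both sides of the 6.31 and 6.28 in NSCL61 (0.01, SE 0.16). The last, 1447893_x_at, was below the filter at 3.17 and 3.31 in NSCL61-sox11, against 3.26 and 3.29 in NSCL61. On every Slc39a6 probe set, also that below the filter, NSCL61-sox11 array 1 read lowest of all arrays.

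**Figure D2:**
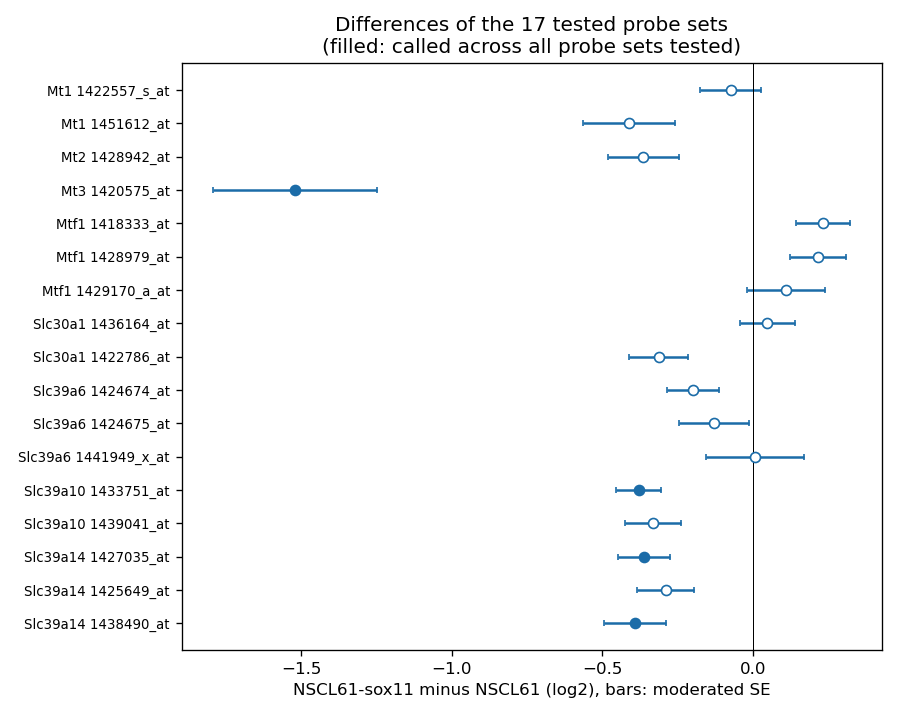
Difference NSCL61-sox11 minus NSCL61 (horizontal axis, log2) of the 17 tested probe sets, with bars of 1 moderated SE; filled points were called across all probe sets tested. Mt3 stands at -1.52, the Slc39a10 and Slc39a14 probe sets between -0.39 and -0.29, and the 3 Mtf1 probe sets above 0.

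Over the 17 tested probe sets, 4 were called, against 17.3% of all 27022. All 4 were lower in NSCL61-sox11, against 8.32% of all called lower, and 0 were higher, against 8.99%. They belong to 3 genes, Mt3, Slc39a10 and Slc39a14. At an unadjusted p under 0.05, 10 would pass. The share of all probe sets that would pass so was not counted, with all arrays or with an array left out. On 10 probe sets both NSCL61-sox11 arrays were lower than both NSCL61 arrays, against 32.4% of all tested, and on 3 both were higher, against 28.1%. The median difference was -0.29, beside -0.02 for all tested probe sets, and the range was -1.52 to 0.23. Since the genes were chosen on this contrast, nothing is read from these counts. Without NSCL61 array 2 limma called 0 of the 17, with 5 at an unadjusted p under 0.05, and without NSCL61 array 1 it called 1, with 8.

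The metallothioneins also differed between the arrays of a single line, and in the same sense in both lines. Array 2 read higher than array 1 in both lines on 4 of 4 metallothionein probe sets, on 3 of 13 of the other probe sets of the set, and on 28.8% of all probe sets tested. For Mt3 array 2 exceeded array 1 by 0.73 in NSCL61-sox11 and by 0.56 in NSCL61, gaps larger than 98.9% of all in NSCL61-sox11 and 98.3% of all in NSCL61. For Mt2 the gaps were 0.16 in NSCL61-sox11 and 0.34 in NSCL61, larger than 61.9% of all in NSCL61-sox11 and 93.3% in NSCL61. On the brighter Mt1 probe set they were 0.12 (51.3%) in NSCL61-sox11 and 0.29 (89.9%) in NSCL61. On the dimmer they were 0.40 (93.8%) in NSCL61-sox11 and 0.17 (72.9%) in NSCL61. The median size of the gap over metallothionein probe sets was 0.28 in NSCL61-sox11 and 0.31 in NSCL61, beside 0.12 in NSCL61-sox11 and 0.10 in NSCL61 for all. For Mtf1 and the transporters it was 0.056 in NSCL61-sox11 and 0.033 in NSCL61. What sets the arrays of a line apart was not tested.

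**Figure D3:**
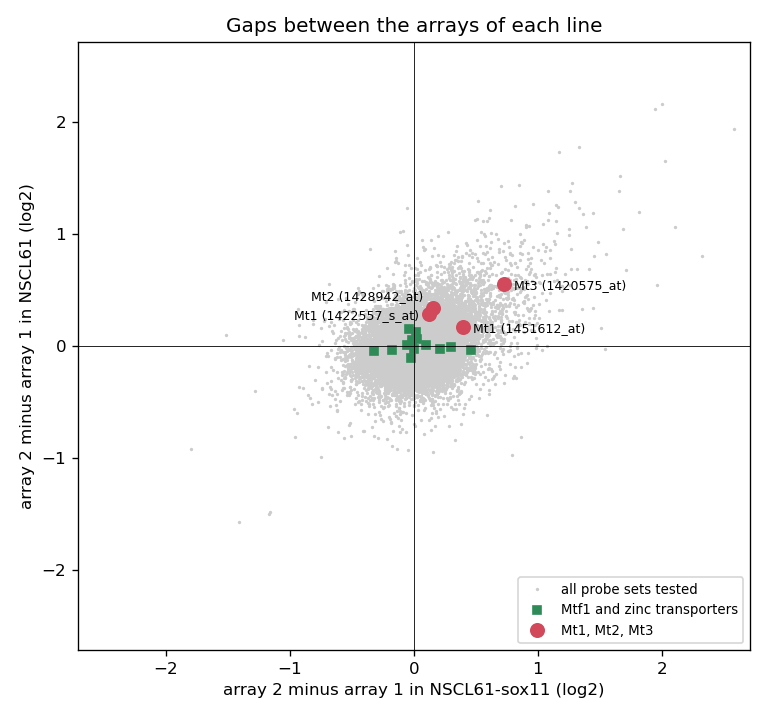
Array 2 minus array 1 within NSCL61-sox11 (horizontal axis, log2) and within NSCL61 (vertical axis, log2) for all 27022 tested probe sets (grey), Mtf1 and the transporters (green squares) and the metallothioneins (red). All 4 metallothionein points lie in the upper right quadrant, with Mt3 at 0.73 and 0.56.

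Among the other zinc transporters, Slc30a4 was the gene called. Slc30a4, or ZnT4, which loads zinc into vesicles, read 11.47 and 11.65 in NSCL61-sox11, against 12.10 and 12.50 in NSCL61. It fell by 0.74 on the log2 scale (SE 0.14, limma adjusted p = 0.0148), and its arrays did not overlap. Without NSCL61 array 2 it was not called (difference -0.54, adjusted p = 0.0621, the highest of its alternatives, whose lowest was 3.94e-13). The other 5 tested Slc30 genes besides Slc30a1 did not pass, and the median of the 6 was 0.02. Of the Slc39 genes outside the set 7 were tested, and limma called 0 of them, with 1 lower at an unadjusted p under 0.05, Slc39a9 at -0.27. Their median was 0.01. Slc39a3 was higher by 0.14 on its brightest probe set and did not pass there, while 1 of its 2 probe sets was called higher. For single genes the background is 10.0% of 13084 genes called higher and 9.19% called lower, each gene by its brightest probe set, with a median difference of -0.02.

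**Figure D4:**
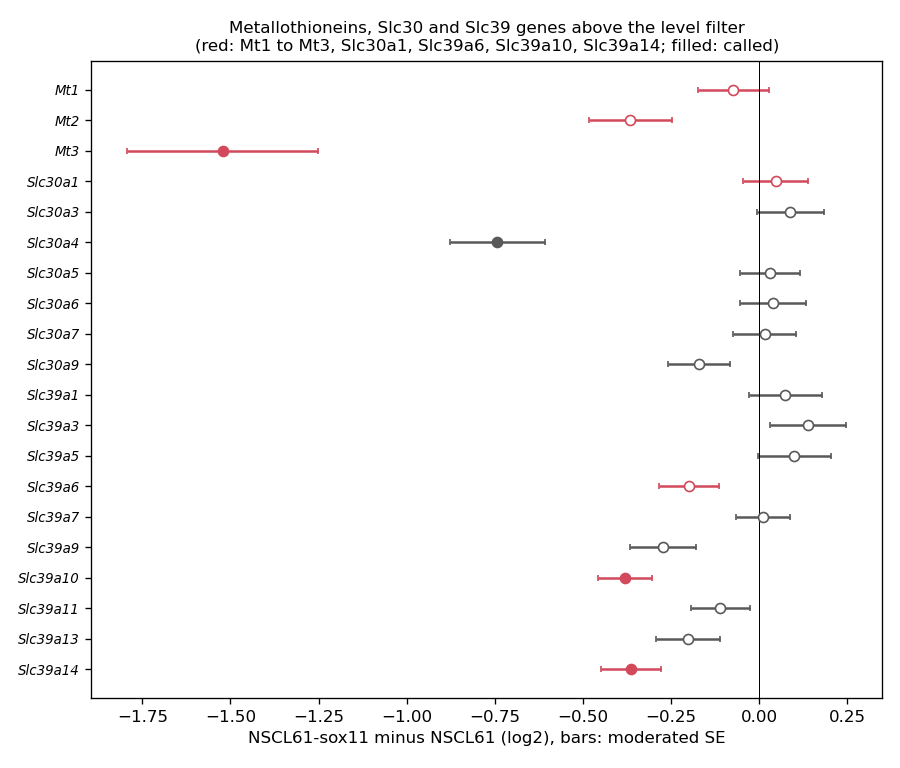
Difference NSCL61-sox11 minus NSCL61 (horizontal axis, log2) of the brightest tested probe set of each metallothionein, Slc30 and Slc39 gene, with bars of 1 moderated SE; red points are genes of the set, grey ones other family members, and filled ones were called. Mt3 at -1.52 and Slc30a4 at -0.74 lie farthest from 0.

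Genes reported as Mtf1-dependent in mouse, other than those of the set, were mostly higher in NSCL61-sox11 on the deposited scale. Of 4 tested, 3 rose and Gclc (0.04) did not pass, with a median of 0.63. With Mtf1 and the targets in the set included, 3 of 9 were called higher, 1, Slc39a10, was called lower and 5 did not pass. The median of these 9 was 0.05. The list was not sorted by whether Mtf1 raises or lowers a gene, so nothing is read from its split or median. Ndrg1, a gene induced by stress and differentiation, read 9.25 and 9.40 in NSCL61-sox11, against 7.93 and 7.62 in NSCL61. It rose by 1.55 (SE 0.13, limma adjusted p = 0.000914) and was called on 5 of 5 probe sets, and its representative one, an _s_at probe set, was called in every alternative that keeps such sets. Selenow, a small selenoprotein, rose by 0.68 (limma adjusted p = 0.0280) on an _x_at probe set, the 1 of its 2 tested probe sets that was called, and Csrp1, a LIM protein, by 0.57 (limma adjusted p = 0.00449), with 2 of 2 called. Neither was called with poly-A scaling, Csrp1 was not with hybridisation control scaling, and both were lost without NSCL61 array 2 (adjusted p 0.155 for Selenow and 0.0580 for Csrp1). Selenow was also lost without NSCL61 array 1 (0.0536). Over all alternatives the adjusted p ran from 6.32e-11 to 0.419 for Selenow and from 3.86e-08 to 0.624 for Csrp1.

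Among genes linked to ZIP6 and ZIP10 as partners, targets or regulators, all 4 tested genes were called, 3 of them higher. The repressors of E-cadherin Snai2 and Snai1 rose, by 2.07 (limma adjusted p = 0.0001) and 1.55 (adjusted p = 0.00307), and were called in every alternative that gave them a value. Stat3, which activates Slc39a6 in zebrafish embryos, rose by 0.88 (adjusted p = 0.00439), and only poly-A scaling removed its call (adjusted p = 0.233, its highest), with 2 of its 3 tested probe sets called. Ncam1, the adhesion protein that the ZIP6 and ZIP10 complex binds in mouse cells, fell by 0.59 (adjusted p = 0.0135), and was not called without NSCL61 array 2 (-0.48, adjusted p = 0.106, its highest). Of its 5 tested probe sets 2 were called. Levels on the representative one were 8.44 and 8.45 in NSCL61-sox11, against 8.92 and 9.14 in NSCL61. Cdh1, which encodes E-cadherin, lay below the filter in both lines. The median of the 4 was 1.22. This list, like the others, was chosen with earlier results of these data known, so nothing is read from its counts. Of all genes tested, 10.0% were called higher and 9.19% lower.

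Iron, copper and redox genes were read beside these because metallothioneins also bind copper and respond to oxidants. Slc40a1, or ferroportin, the cell's iron exporter, read 7.33 and 7.83 in NSCL61-sox11, against 5.25 and 5.72 in NSCL61. It rose by 2.10 (SE 0.21, limma adjusted p = 0.00199), 4.28-fold, in every alternative. Among 13 tested iron genes, 3 were called higher, 1 was called lower and 9 did not pass, with a median of 0.06. Ncoa4, the receptor for ferritin breakdown, fell by 0.57 (adjusted p = 0.00821), which was lost without NSCL61 array 2 (0.0854). The ferroxidase gene Cp rose by 0.53 (adjusted p = 0.0446) and Aco1, an iron regulatory protein, by 0.27 (adjusted p = 0.0425). Both were lost without NSCL61 array 1, NSCL61 array 2 or NSCL61-sox11 array 1 (adjusted p 0.111 to 0.180 for Cp and 0.0752 to 0.278 for Aco1), and Aco1 turned to -0.14 with poly-A scaling. Both were also lost with either spike-in scaling, median centring, no intensity trend and no level filter, and Cp with quantile normalization. Over all alternatives the adjusted p ran from 6.49e-08 to 0.0854 for Ncoa4, from 0.000126 to 0.744 for Cp and from 0.00180 to 0.826 for Aco1. Tfrc, the transferrin receptor of iron uptake, did not pass on its brightest probe set (-0.38, adjusted p = 0.0730), while 2 of its 3 tested probe sets were called lower.

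Of 12 copper genes 1 fell and 11 did not pass, with a median of -0.13. That 1 was Sco1, a copper chaperone of cytochrome oxidase, by 0.42 (limma adjusted p = 0.0309), lost with poly-A scaling (0.0685) and without NSCL61 array 1 (0.159), NSCL61 array 2 (0.141) or NSCL61-sox11 array 2 (0.0923), with a lowest adjusted p of 0.00125 among its alternatives. Of 11 glutathione genes and targets of Nrf2, the oxidant-responsive factor, 3 rose and 8 did not pass, with a median of 0.12. Hmox1, the heme-degrading enzyme, rose by 0.66 (adjusted p = 0.0239), Gss, which completes glutathione, by 0.48 (adjusted p = 0.0313) and Nfe2l2, which encodes Nrf2, by 0.32 (adjusted p = 0.0434). Of the 2 tested probe sets of Nfe2l2, 1 was called. All 3 genes were lost with either spike-in scaling and without either NSCL61 array (adjusted p 0.113 to 0.135 for Hmox1, 0.142 to 0.174 for Gss and 0.118 to 0.292 for Nfe2l2 without an NSCL61 array). Gss was also lost without NSCL61-sox11 array 1 (0.0629) and Nfe2l2 without NSCL61-sox11 array 2 (0.0834), and Nfe2l2 turned to -0.08 with poly-A scaling and was also lost with median centring, no intensity trend and no level filter. Over all alternatives the adjusted p ran from 1.33e-07 to 0.469 for Hmox1, from 2.21e-05 to 0.830 for Gss and from 0.000216 to 0.814 for Nfe2l2. Of the glucocorticoid receptor gene Nr3c1 and 6 of its targets, limma called 0 of 7 on their brightest probe sets, with 1 higher at an unadjusted p under 0.05 and a median of -0.08. The target Tsc22d3 differed by -0.18 on its brightest probe set, while 1 of its 3 tested probe sets was called higher. Over all lists 16 of the 63 genes tested outside the set were called, 12 higher and 4 lower on the deposited scale. With hybridisation control scaling the split was 6 higher and 9 lower, and with poly-A scaling 4 higher and 5 lower. Without NSCL61 array 1 the count was 9 and without NSCL61 array 2 it was 5.

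Mt3, Mt2 and Mt1 lie next to each other on chromosome 8 with Mt4, in the gene order of GRCm38.p6. The 6 genes on each side were looked at after the metallothionein values had been seen. Of the 10 that were tested, Herpud1, an endoplasmic reticulum stress gene, rose by 0.64 (limma adjusted p = 0.00870) and Cpne2, a calcium-binding copine, by 1.24 (limma adjusted p = 0.00283). Leaving out NSCL61 array 1 (adjusted p = 0.0600) or array 2 (0.0758) removed the call of Herpud1, as did both spike-in scalings (1.64e-07 to 0.498 over all alternatives). Cpne2 was lost with poly-A scaling alone (0.0670). The other 8, among them the direct neighbours Bbs2 (-0.06) and Nup93 (0.03), did not pass. The lowest difference among the 10 was -0.18, in Ces5a, against -1.52 in Mt3.

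The genes whose levels most resembled those of each metallothionein over the 4 arrays were found as the smallest root mean square difference (RMS) after each gene was centred on its own mean. For Mt3 these were Tcim (RMS 0.083), Fgd4 (0.11) and Rnf183 (0.13). Tcim, a small regulator of transcription, read 7.74 and 8.68 in NSCL61-sox11, against 9.43 and 10.09 in NSCL61, a difference of -1.54. Fgd4, an activator of Cdc42, differed by -1.52 and Rnf183, a ubiquitin ligase, by -1.46. All 3 also read higher on array 2 of each line. For Mt2 they were Zswim8 (0.018), Apbb1 (0.025) and Bicdl1 (0.026), and for Mt1 Gpbp1l1 (0.011), Med13 (0.013) and Pfkm (0.016). This likeness rests on 4 arrays and on the same contrast that chose the metallothioneins.

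Markers of other cells were set beside these differences. Of 6 tested astrocyte markers, Slc1a3 rose by 1.19 (limma adjusted p = 0.00298) and 5 did not pass, Gfap among them (5.79 and 5.75 in NSCL61-sox11, against 6.09 and 6.02 in NSCL61). The 6 had a median difference of -0.18, with 4 of them negative. The log2 of their summed levels was 8.78 and 8.91 in NSCL61-sox11, against 8.40 and 8.65 in NSCL61, with Slc1a2 below the filter. Such a sum weighs each marker by the brightness of its probe set, and Slc1a3 was the astrocyte marker with a large positive difference. Of 4 tested fibroblast and meningeal markers Col1a1, Col1a2 and Pdgfrb rose and Dcn did not pass, and their sum was 10.69 and 11.36 in NSCL61-sox11, against 8.62 and 9.33 in NSCL61, with Lum below the filter. Of 3 neuronal markers Tubb3 rose (7.55 and 7.45 in NSCL61-sox11, against 5.76 and 6.25 in NSCL61), while Rbfox3 (-0.08) and Syp (-0.07) did not pass and the median was -0.07. Their sums were 8.55 and 8.48 in NSCL61-sox11, against 8.02 and 8.04 in NSCL61, with Map2 and Dcx below the filter. Of these 5 calls only poly-A scaling removed any, those of Slc1a3 (adjusted p = 0.0877) and Col1a2 (0.132). Of 3 oligodendrocyte, 2 endothelial and 1 microglial or blood markers tested, limma called none, with 1 endothelial marker lower at an unadjusted p under 0.05. The part of these cell markers in the differences of the zinc genes was not tested.

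**Figure D5:**
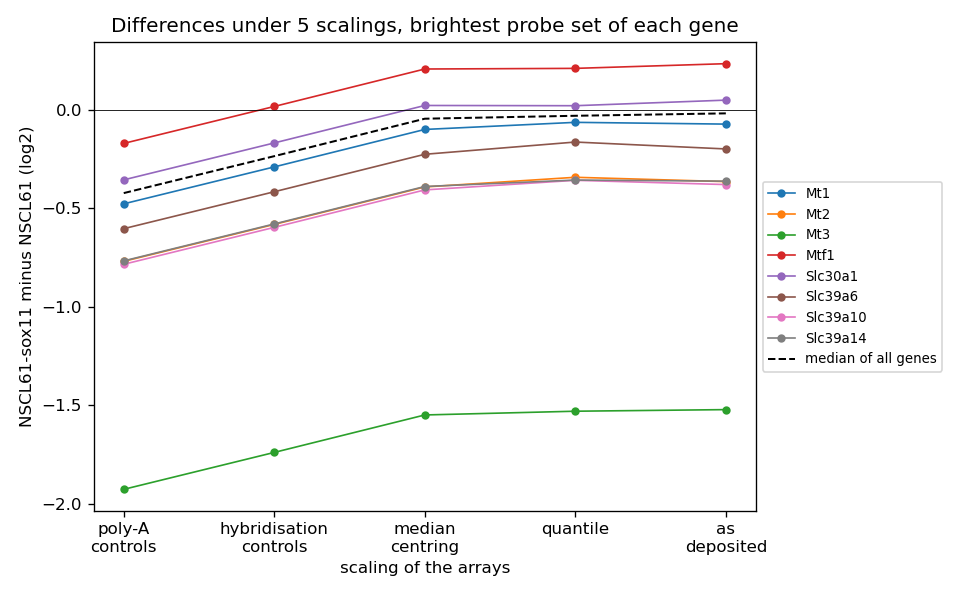
Difference NSCL61-sox11 minus NSCL61 (vertical axis, log2) of the brightest probe set of each of the 8 genes under 5 scalings of the arrays (horizontal axis), with the median of all genes dashed. Scaling to controls moves all lines together with the median. Slc30a1 turns negative with both kinds of controls, and Mtf1 with the poly-A controls only.

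The scale of the arrays moved every difference together. Scaling to the poly-A controls shifted the median of all genes to -0.42, and scaling to the hybridisation controls shifted it to -0.24, beside -0.02 as deposited. Mt3 then differed by -1.93 with the poly-A controls and by -1.74 with the hybridisation controls, and by -1.55 with median centring. Scaling to controls and median centring take 1 constant off each array, so differences relative to the median of all genes do not depend on them. Relative to that median, Mt3 was at -1.50, Mt2 at -0.35, Slc39a10 at -0.36, Slc39a14 at -0.34, Slc39a6 at -0.18, Mt1 at -0.05, Slc30a1 at 0.07 and Mtf1 at 0.25. Quantile normalization, which can change them, gave -1.50 for Mt3, -0.31 for Mt2, -0.33 for Slc39a10, -0.33 for Slc39a14, -0.13 for Slc39a6, -0.03 for Mt1, 0.05 for Slc30a1 and 0.24 for Mtf1. Among probe sets 2429 were called higher and 2249 lower as deposited, 558 higher and 1995 lower with the poly-A controls, and 1242 higher and 4656 lower with the hybridisation controls.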

How the data were processed

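Per the labels, biotin-labelled RNA of 2 samples per line was read on Affymetrix M430_2 arrays, 1 array per sample. The deposited values were taken for log2 levels from their range, 2.13 to 14.6. The log base, summarisation and normalization by the authors are not given in the sources used here, and the values were used as deposited. For arrays, their number limits the precision: an exact permutation test of 2 against 2 cannot go below a two-sided p of 0.333.

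Probe sets were named from GEO's platform annotation: 34945 had 1 symbol, 932 had several and 9160 had none, and 0 symbols were updated through the gene table of GRCm38.p6. The 64 control probe sets were left out. Differences came from limma 3.58.1 under R 4.3.3, with lmFit and eBayes, an intensity trend and two-sided p-values, on the 27022 probe sets that make up the 60% with the highest mean, at least 5.15, with Benjamini-Hochberg adjustment over them. Residual degrees of freedom were 2, and 6.36 after moderation. For genes other than the 8, the brightest tested probe set stood for the gene. No p-value is given for the 8 genes, which were chosen with this contrast in view. The members and all gene lists were chosen with earlier results of these data known.

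Named are every probe set of the 8 genes, Sox11, every called metallothionein, Slc30 or Slc39 gene, up to 4 called genes with the largest difference in each other list, and the 3 genes most like each of Mt1, Mt2 and Mt3. Genes named beyond this, such as neighbours, were chosen after their values were seen. Scaling to the poly-A or hybridisation controls, median centring, quantile normalization, other level filters, no intensity trend, no _x_at and _s_at probe sets, a replicate block and leaving out each array were tried. The fit was tested on simulated data. Figures were drawn with matplotlib 3.10.9.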

Additional observations from a re-analysis of the deposited data

How the results depend on the processing

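With 2 arrays per line the counts of calls depended strongly on single arrays. Leaving out each array in turn gave 1639 to 4947 called probe sets (4678 with all arrays), 0 to 6 of the 17 probe sets of the 8 genes (4 with all) and 5 to 16 of the 63 other genes of the lists (16 with all). Without NSCL61 array 1 or 2, 1639 and 1701 probe sets, 1 and 0 of the 17, and 9 and 5 of the 63 were called. Leaving out an NSCL61-sox11 array, which keeps as many arrays, gave 4947 and 4513 probe sets, 3 and 6 of the 17, and 16 of the 63 each time, and the cause of this contrast was not tested. With arrays scaled to the poly-A controls, 2553 probe sets, 1 of the 17 and 9 of the 63 were called, and with the hybridisation controls 9 of the 17. Nothing in the labels says that equal array numbers share a culture or day, and the deviations of same-numbered arrays correlated at 0.41 over probe sets, with 2 pairs. A fit with the array number as a replicate block called 9227 probe sets, 10 of the 17, Mt2 among them, and 29 of the 63. None of the 4 called differences of the 8 genes changed sign under any alternative. Of the 17 differences, called or not, 5 changed sign with the poly-A controls, 4 with the hybridisation controls, 1 with median centring, 1 with quantile normalization, 2 without NSCL61 array 2, and 2 or 1 when array 1 or array 2 of NSCL61-sox11 was left out.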
